A study of Homo sapiens with 6 samples.

Results

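The 31 genes described here make cholesterol and fatty acids or control that synthesis, and they were taken by symbol from a table of 47577 loci, 26793 of which carry a symbol. They comprise 6 genes of the mevalonate arm, 11 genes that convert farnesyl diphosphate through squalene to cholesterol, 6 genes of sterol sensing and transport, and 8 genes of fatty acid synthesis and desaturation. Each of the 31 was found as 1 locus with a symbol of its own. OVCAR3 is an established line of high-grade serous ovarian adenocarcinoma, and all groups are cultures of this 1 line. PolyA plus RNA was sequenced from 3 cultures that received DMSO, the solvent, and from 3 that received 200 nM THZ531, a covalent inhibitor of the transcriptional kinases CDK12 and CDK13, each for 6 h. The titles, descriptions and design text name THZ531, whereas the protocol text gives the compound as THZ1, with an equal dose. The repeats are labelled biological, and how far the cultures were handled apart is not stated. The p-values thus set the difference between groups against the spread between these cultures only. The spread of each gene was adjusted toward that of loci of similar level. Bulk RNA was measured, so fewer cells of a kind and less RNA per cell cannot be told apart.

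Cells assemble cholesterol from acetyl-CoA through mevalonate, isoprenoid diphosphates, squalene and lanosterol, and build fatty acids from the same acetyl-CoA through malonyl-CoA. Transcription of these genes is driven by the membrane-bound SREBP factors, which SCAP escorts from the endoplasmic reticulum to the Golgi for cleavage when sterols are low, and which INSIG proteins hold back when sterols are plentiful. Proliferating tumor cells use both products for membranes.

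The libraries held 53054048 to 70986130 reads on loci, and every one of the 31 genes had between 145 and 21044 reads in each library. The deposited values are reads after division by the size factor of their library and are called normalized reads below. All 11 epithelial and serous ovarian markers examined passed the minimum for expression, and their summed level was 523580 to 539940 in DMSO and 674880 to 688010 in THZ531, while the lineage factor PAX8 fell from 10645, 11535 and 11636 to 1184, 1161 and 1380 normalized reads (log2 fold change -3.18, adjusted p = 4.60e-15, limma). The summed level of 7 fibroblast markers was 1739 to 1994 in DMSO and 3269 to 3597 in THZ531, mostly COL1A1 and COL3A1, and the part of this difference in the results below was not tested. Of 6 immune markers, 3 passed the minimum and none passed the test (519 to 598 over all libraries, with CD3E at 0). By the rule given below, 2 of 4 endothelial markers rose, beside 15.7% of all loci (summed level 231 to 286 against 308 to 419.8). With libraries scaled to the same total 0 rose and 0 fell, beside 9.38% and 32.0% of all loci. With libraries scaled to the transcript RPL34 0 rose and 1 fell, beside 6.14% and 42.8%. Of 7 markers of adipocytes and hepatocytes, the cells best known for lipid synthesis, none passed the minimum, ALB and CYP7A1 were listed at 0 in all 6 libraries, and the list summed to at most 67.5 normalized reads.

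Most of the 31 genes differed by less than 1.5-fold after 6 h, and those that passed the test belonged to different steps. Regulated here means a fold change of 1.5 or more together with an unadjusted p no higher than 0.05 (limma on log2(value + 1)). By this rule 6 of the 31 genes were regulated, against a background of 39.5% of the 17568 loci tested and 37.0% of the tested loci with a symbol. SQLE, STARD4, CYP51A1 and SCAP rose (4 genes, background 15.7%), and MVK and ELOVL6 fell (2 genes, background 23.9%). The median log2 fold change of the 31 genes was 0.26, beside a median of -0.0071 over all loci tested. Of the other 25 genes, 16 had an adjusted p no higher than 0.05 at a smaller fold (limma, Benjamini-Hochberg). Without a fold threshold 22 genes thus passed, 17 with higher and 5 with lower values in THZ531, beside 68.6% of all loci. The 3 DMSO values and the 3 THZ531 values did not overlap for 24 genes, 19 of them higher and 5 lower in THZ531, beside 71.7% of all loci.

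These directions are relative to the scaling of the libraries. The deposited normalization left the sum of the normalized reads higher in THZ531 than in DMSO, so scaling each library to the same total moved every log2 fold change by -0.24, and scaling to RPL34, the reference transcript of the study's PCR assays, moved it by -0.49. Regulated genes numbered 3 up and 4 down with the same total, beside 9.38% and 32.0% of all loci, and 0 up and 7 down with RPL34, beside 6.14% and 42.8% of all loci. Of the 31 log2 fold changes, 15 and 24 were below 0 under these scalings, against 8 as deposited. The distance between the median of the 31 genes and the median of all loci was 0.27 on the log2 scale under each of these scalings. The shift was nearly the same for every gene, so the distances between genes hardly moved while the sign of many single changes did. The plot of the 31 genes under 3 scalings shows this shift.

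**Figure D1:**
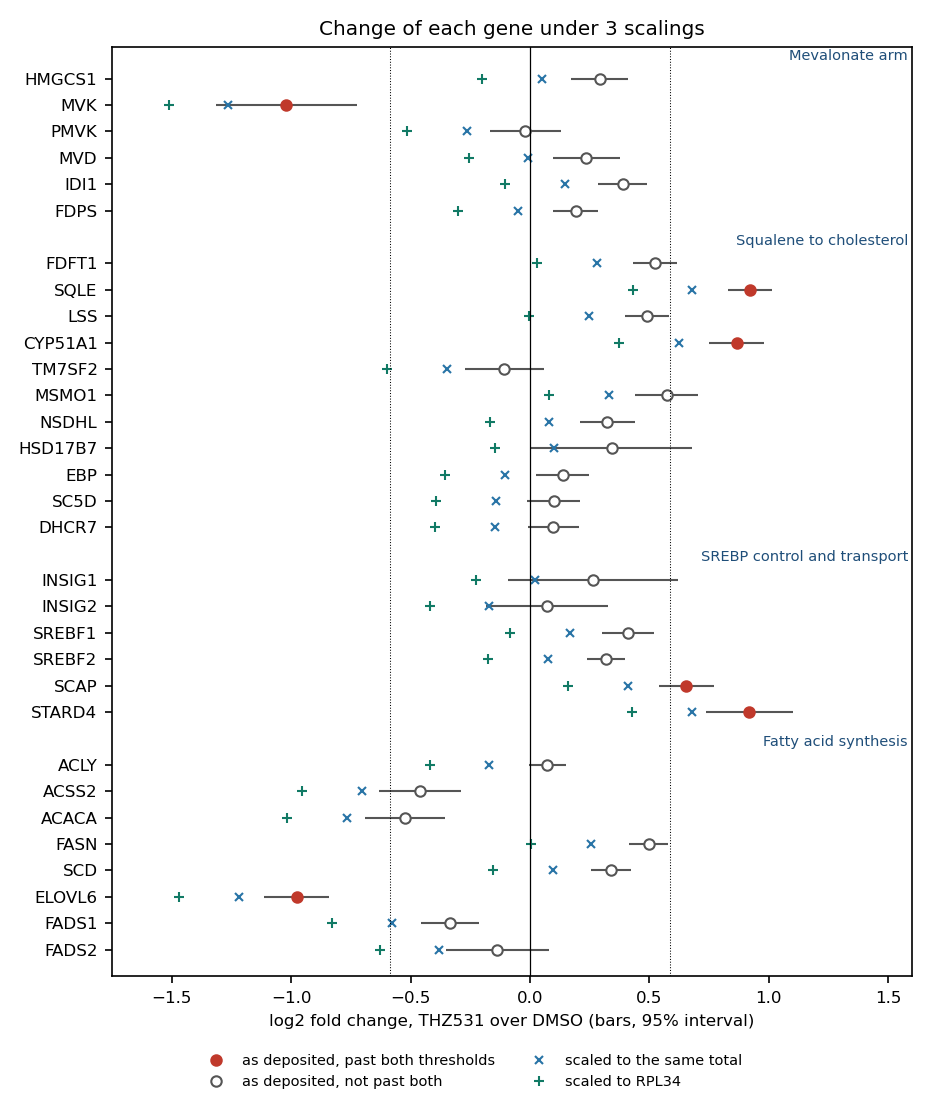
Each row is 1 of the 31 genes, grouped by role, and the horizontal axis is the log2 fold change of THZ531 over DMSO. Circles with 95% intervals are the deposited scaling, filled for the 6 regulated genes, crosses are libraries scaled to the same total and plus signs libraries scaled to RPL34, and dotted lines mark a fold change of 1.5 in either direction. MVK and ELOVL6 lie left of the dotted line under all 3 scalings, whereas SQLE, STARD4 and CYP51A1 lie right of it under 2 and SCAP under 1.

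Within the mevalonate arm, MVK, the kinase that phosphorylates mevalonate, was the only gene to pass both thresholds, and it fell. Its DMSO libraries held 503, 465 and 459 normalized reads and its THZ531 libraries 184, 276 and 251. The groups did not overlap, and the first THZ531 library was the lowest of the 6. The means were 476 ± 24.2 and 237 ± 47.8 (SD, n = 3), a 2.03-fold decrease (log2 fold change -1.02, SE 0.14, 95% interval -1.32 to -0.73, adjusted p = 6.86e-06, limma). Leaving out each library in turn gave log2 fold changes from -1.14 to -0.85.

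The other 5 enzymes of the arm did not pass the fold threshold. HMGCS1, which makes HMG-CoA from acetyl-CoA units upstream of mevalonate, had 2434, 2275 and 2249 normalized reads in DMSO and 2947, 2634 and 2952 in THZ531, non-overlapping groups with a fold change of 1.23. PMVK, the next kinase in the chain, had 1702, 1820.5 and 1493 in DMSO and 1571, 1690.3 and 1671 in THZ531 (log2 fold change -0.020, 95% interval -0.17 to 0.13). Its groups overlapped. MVD, which decarboxylates mevalonate diphosphate to isopentenyl diphosphate, IDI1, which isomerizes that product, and FDPS, which condenses isoprene units to farnesyl diphosphate, had log2 fold changes of 0.24, 0.39 and 0.19, each with non-overlapping groups. With RPL34 scaling the sign of the changes of HMGCS1, MVD, IDI1 and FDPS turned (from -0.30 to -0.10), whereas MVK stood at -1.51. The 95% interval of MVK did not meet that of any other gene of the arm, and the difference between genes was not itself tested.

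In the sterol arm, SQLE and CYP51A1 rose, and none of the other 9 genes passed the fold threshold as deposited. SQLE, the squalene epoxidase that carries out a rate-limiting oxygenation of the pathway, had 2602, 2603 and 2683 normalized reads in DMSO and 5087, 4879.9 and 4992 in THZ531. All 3 treated values were above all 3 controls by far more than the spread of either group. The means of 2629.5 ± 46.6 and 4986 ± 104 (SD, n = 3) correspond to a 1.90-fold increase (log2 fold change 0.92, SE 0.043, adjusted p = 3.07e-11, limma). CYP51A1, the cytochrome that demethylates lanosterol, had 1696, 1534 and 1553 in DMSO and 2878, 2951 and 2879.5 in THZ531. The groups were again clearly apart, and the log2 fold change was 0.87 (SE 0.054, 1.82-fold, adjusted p = 7.81e-10, limma). Both stayed above a fold change of 1.5 with the same total (0.68 and 0.62 on the log2 scale) and stood under it with RPL34 (0.43 and 0.37).

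MSMO1, FDFT1 and LSS were the next highest of the arm and stayed under the fold threshold. MSMO1, which oxidizes methyl groups of the sterol ring, had 1901, 1848 and 1659.6 normalized reads in DMSO and 2607, 2863 and 2567 in THZ531, a fold change of 1.49. FDFT1, the squalene synthase that commits farnesyl diphosphate to sterols, had 4784, 4589 and 4361 in DMSO and 6774, 6521 and 6447 in THZ531, a fold change of 1.44. LSS, which cyclizes the product of SQLE to lanosterol, had 2766, 2816 and 2806 in DMSO and 3902, 3922 and 3964 in THZ531, a fold change of 1.41. In these 3 genes the groups did not overlap, and the adjusted p was 5.23e-07, 2.58e-08 and 4.13e-08 (limma). MSMO1 passed the fold threshold when DMSO replicate 1 or 2 or THZ531 replicate 1 or 3 was left out, with log2 fold changes from 0.59 to 0.61 in those cases. The plot of each library shows FDFT1, SQLE, LSS, CYP51A1 and MSMO1 with their treated libraries together on the right.

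The remaining 6 genes of the arm had log2 fold changes from -0.11 to 0.34. NSDHL, a sterol dehydrogenase of demethylation, had 1802, 1753 and 1802 normalized reads in DMSO and 2132, 2221 and 2361 in THZ531 (fold change 1.25). HSD17B7, the ketoreductase that follows NSDHL and one of the lowest genes of the set, had 146, 161 and 132 and 202, 191 and 165, groups that did not overlap but came close, with an adjusted p of 0.0667 (limma). EBP, a sterol isomerase, and DHCR7, the reductase that yields cholesterol, had log2 fold changes of 0.14 and 0.10 with non-overlapping groups, and SC5D, a sterol desaturase, had 0.10 with groups that overlapped. TM7SF2, the sterol reductase that acts on the product of CYP51A1, had 726, 701 and 675 in DMSO and 618, 679.8 and 655 in THZ531 and was the only 1 of the 11 sterol genes with a log2 fold change below 0 as deposited (-0.11, 95% interval -0.27 to 0.061). The median of the 11 genes was 0.34, and with RPL34 scaling it was -0.15.

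**Figure D2:**
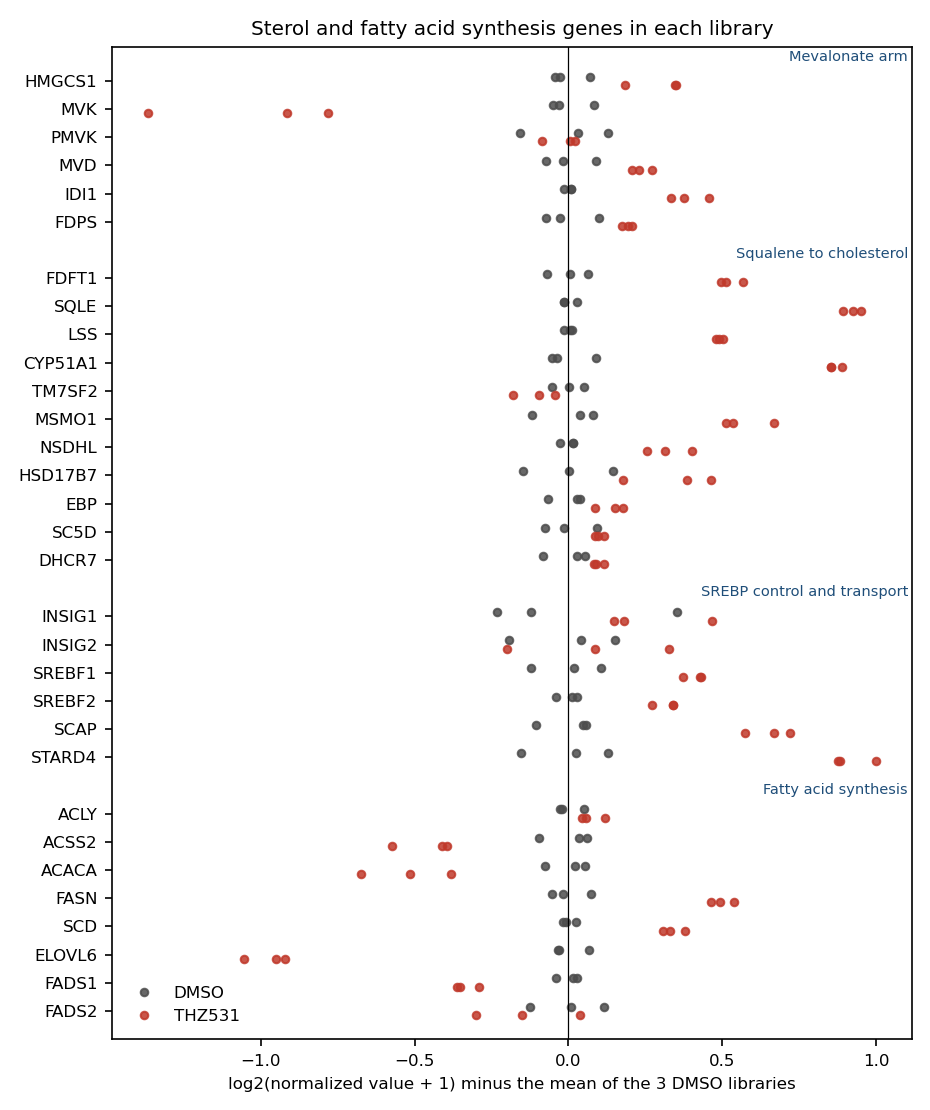
Each point is 1 library, placed by its log2(normalized value + 1) minus the mean of the 3 DMSO libraries of that gene, with DMSO in gray and THZ531 in red, 3 libraries each. Treated libraries of SQLE, CYP51A1 and STARD4 sit together near 0.9, those of ELOVL6 and MVK lie far to the left, with 1 library of MVK apart from the other 2, and the groups of PMVK, INSIG2 and FADS2 are mixed.

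Among the genes that sense and carry sterols, SCAP and STARD4 rose. STARD4, a soluble protein that carries cholesterol between membranes, had 495, 602 and 560.1 normalized reads in DMSO and 1101, 1016 and 1011 in THZ531. Every treated value exceeded the highest control by more than the range within either group, and the log2 fold change was 0.92 (SE 0.085, 1.89-fold, adjusted p = 8.31e-08, limma). SCAP, the escort of the SREBP precursors, had 2971, 2953 and 2655 in DMSO and 4252, 4705 and 4542 in THZ531. Its groups did not overlap, and the log2 fold change was 0.65 (SE 0.054, 1.57-fold, adjusted p = 2.21e-08, limma), which scaling to the same total brought under the fold threshold (0.41).

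The SREBP genes themselves differed by less than the fold threshold. SREBF1, which encodes the SREBP factors of fatty acid synthesis, had 5481, 5156 and 4679 normalized reads in DMSO and 6848, 6874 and 6593 in THZ531, a fold change of 1.33. SREBF2, whose product acts mostly on sterol genes, had 8766, 8678 and 8368 in DMSO and 10898, 10886 and 10376 in THZ531, a fold change of 1.25. In both the treated values lay above the controls, and with RPL34 scaling both signs turned (-0.083 and -0.18). INSIG1 and INSIG2, which retain SCAP in the endoplasmic reticulum, had groups that overlapped. INSIG1 had 239, 172 and 159 in DMSO and 258, 207 and 212 in THZ531, and the first DMSO library exceeded 2 treated libraries (95% interval of the log2 fold change -0.094 to 0.62). INSIG2 had 550.2, 648 and 699.8 in DMSO and 669, 790.0 and 548 in THZ531 (95% interval -0.18 to 0.33).

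**Figure D3:**
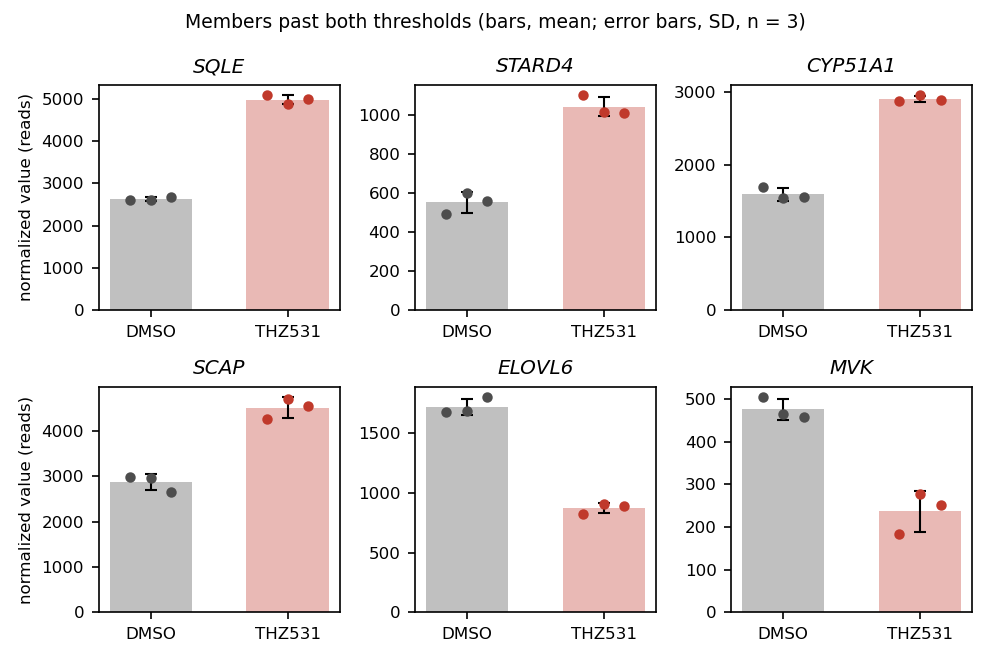
Bars give the mean of 3 libraries in normalized reads with SD error bars and points the single libraries, for the 6 regulated genes, with DMSO in gray and THZ531 in red and each vertical axis starting at 0. SQLE, STARD4 and CYP51A1 rose 1.82-fold to 1.90-fold, SCAP rose 1.57-fold, and ELOVL6 and MVK fell by 1.97-fold and 2.03-fold, with no overlap between groups.

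Fatty acid synthesis was the only 1 of the 4 groups with a median below 0 as deposited (-0.24), and its enzymes went in both directions. ELOVL6, which elongates palmitate to stearate, fell, with 1675, 1679 and 1795 normalized reads in DMSO and 826, 905 and 886 in THZ531. The treated values were close to each other and all far below the controls, with a 1.97-fold decrease (log2 fold change -0.98, SE 0.064, adjusted p = 1.47e-09, limma). FASN, the synthase that makes palmitate, had 14297, 13411 and 13085 in DMSO and 19128, 19709 and 18734 in THZ531. Its treated values lay above the controls with a fold change of 1.41 (adjusted p = 1.11e-08, limma), under the fold threshold. With RPL34 scaling the log2 fold change of FASN was 0.0045, and that of ELOVL6 was -1.47.

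ACACA, the carboxylase that supplies malonyl-CoA to FASN, had 1263, 1235 and 1153 normalized reads in DMSO and 851, 762 and 933 in THZ531. The treated values were lower without overlap, 1.44-fold on average (log2 fold change -0.52, adjusted p = 2.03e-05, limma), and passed the fold threshold without THZ531 replicate 3 (-0.59) and with the same total (-0.77). ACSS2, which makes acetyl-CoA from acetate, had 905, 827 and 920.0 in DMSO and 671, 664 and 593 in THZ531, a 1.38-fold lower mean under the threshold. It passed the threshold with the same total (-0.70). ACLY, which makes acetyl-CoA from citrate, had 16707, 15904 and 15819 and 16643, 16771 and 17541, groups that overlapped at a log2 fold change of 0.073 (95% interval -0.0036 to 0.15). The 95% intervals of ACSS2 and ACLY, which both supply acetyl-CoA, did not meet.

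As deposited, the desaturases were all under the fold threshold. With RPL34 scaling FADS1 (-0.83) and FADS2 (-0.63) passed it downward and SCD (-0.15) did not. SCD, which introduces the double bond into stearate, had 4724, 4592 and 4621 normalized reads in DMSO and 5845, 6046 and 5749.8 in THZ531, a fold change of 1.27 without overlap. FADS1, a desaturase of polyunsaturated fatty acids, had 1664, 1585 and 1647 in DMSO and 1268, 1278 and 1332 in THZ531, 1.26-fold lower without overlap (adjusted p = 6.80e-05, limma). FADS2, its neighbour on chromosome 11 and the partner desaturase of that route, had 636, 589 and 538 and 602, 476 and 528, with overlapping groups. The loci of FADS1 and FADS2 share 801 bases. With the same total 3 of the 8 fatty acid genes were regulated downward and with RPL34 5, beside 32.0% and 42.8% of all loci, and none upward under either.

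Per kilobase of spliced transcript, the highest level of the set in DMSO was that of FDPS (5025 normalized reads per kilobase), followed by ACLY (3760.4) and FDFT1 (2249.8), and the lowest was that of INSIG1 (65.3), followed by HSD17B7 (95.8). STARD4 and MVK, which changed in opposite directions, stood at 119 and 168 in DMSO and at 225 and 83.7 in THZ531. Across the 31 genes the Spearman correlation of the log2 fold change with the mean DMSO value was 0.36, a description over genes that share the same 6 libraries and a range of counting error that widens at low levels. ACACA and ELOVL6, both lower in THZ531, were the only genes of the set with a span of at least 100 kb (321845 and 152770 bases). Among 13246 tested genes with a representative GENCODE transcript, 24.8% of those of at least 100 kb and 22.5% of the shorter ones were regulated downward. The Spearman correlation of span with log2 fold change over the 31 genes was -0.087, and 0.10 without the 2 longest genes.

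The promoters of 5 regulated genes, all but SQLE, are shown. Regulation by SREBP acts close to the start of transcription, together with a CCAAT box or a GC box. In RefSeq's table for GRCh38.p14, 28 of the 31 genes had a window from 250 bases before to 50 after the start, and 4 motifs were searched on both strands, each match counted on its own even where motifs overlapped: the sterol regulatory element TCACNCCAC, the CCAAT box CCAAT, the GC box GGGCGG and the E box CACGTG. FDFT1, SQLE and FASN had no such window and were not searched. The sterol regulatory element in these letters was found in 1 of the 28 genes, SREBF2, and in 1.44% of 11509 tested genes, and variants of it were not searched. A CCAAT box was found in 21 of 28 genes (75% against 42.7% of tested genes), a GC box in 27 (96.4% against 75.5%) and an E box in 4 (14.3% against 12.2%). The 250 bases before the start are given 5′ to 3′ on the strand of the gene, with CCAAT boxes, GC boxes and E boxes in capitals in either orientation, for CYP51A1 (chr7:92134478-92134727, minus strand), SCAP (chr3:47475942-47476191, minus strand), STARD4 (chr5:111512536-111512785, minus strand), MVK (chr12:109573544-109573793, plus strand) and ELOVL6 (chr4:110198616-110198865, minus strand).
CYP51A1: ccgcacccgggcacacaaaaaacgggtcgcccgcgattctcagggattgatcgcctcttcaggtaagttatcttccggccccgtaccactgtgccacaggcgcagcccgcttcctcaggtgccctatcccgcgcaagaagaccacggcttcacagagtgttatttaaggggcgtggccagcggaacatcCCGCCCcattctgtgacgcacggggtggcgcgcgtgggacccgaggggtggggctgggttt
SCAP: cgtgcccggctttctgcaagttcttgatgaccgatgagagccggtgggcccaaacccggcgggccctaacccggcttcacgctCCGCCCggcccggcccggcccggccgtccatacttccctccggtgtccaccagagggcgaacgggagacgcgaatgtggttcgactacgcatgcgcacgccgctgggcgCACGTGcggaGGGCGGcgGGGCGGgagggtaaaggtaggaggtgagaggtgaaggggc
STARD4: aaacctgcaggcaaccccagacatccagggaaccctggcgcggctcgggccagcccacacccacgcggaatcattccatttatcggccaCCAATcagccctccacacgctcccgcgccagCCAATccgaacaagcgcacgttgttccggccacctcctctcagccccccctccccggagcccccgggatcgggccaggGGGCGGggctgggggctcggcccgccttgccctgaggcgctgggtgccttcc
MVK: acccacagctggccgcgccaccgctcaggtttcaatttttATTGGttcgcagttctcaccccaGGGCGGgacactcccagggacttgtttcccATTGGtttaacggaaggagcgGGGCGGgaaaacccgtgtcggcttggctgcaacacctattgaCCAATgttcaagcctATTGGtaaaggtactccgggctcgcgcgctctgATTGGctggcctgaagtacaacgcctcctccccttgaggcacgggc
ELOVL6: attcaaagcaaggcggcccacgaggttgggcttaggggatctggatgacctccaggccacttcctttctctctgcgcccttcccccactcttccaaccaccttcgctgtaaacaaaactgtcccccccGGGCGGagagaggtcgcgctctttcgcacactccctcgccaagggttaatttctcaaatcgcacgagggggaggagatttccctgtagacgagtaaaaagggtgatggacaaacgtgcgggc
MVK, which fell, holds CCAAT boxes in both orientations. STARD4, which rose, holds CCAAT boxes only on the strand of the gene, as printed. CYP51A1, SCAP and ELOVL6 hold none, so regulated genes of either direction occurred with and without this box. A match is a run of letters and not a measured binding site.

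Loci without a symbol that lie wholly inside a gene of the set were examined with their hosts, because inhibition of CDK12 and CDK13 is known to favor the use of polyadenylation sites within introns. There were 9 such loci, and 6 of these passed the minimum for expression. Of the 6, 3 passed both thresholds upward and none downward, beside 31.1% and 25.3% of the 2290 tested loci without a symbol. For the locus inside ACACA only the first DMSO library reached the minimum, so its pass rested on the THZ531 libraries. Its values are given without a test, which leaves 2 increases among 5 loci. It lies at chr17:37328839-37328986 (hg38), within intron 3 of the representative transcript, an intron of 45202 bases. The locus had 11.9, 9.28 and 3.99 normalized reads in DMSO and 88.2, 75.02 and 105 in THZ531. All treated values were above the highest control, while the host gene was lower in every treated library. The locus begins 1187 bases after the 5′ splice site of the intron. Its 148 bases are shown on the strand of ACACA, since the strand of the locus is not given in the table, with a variant polyadenylation hexamer, ATTAAA, in capitals.
ACACA_locus: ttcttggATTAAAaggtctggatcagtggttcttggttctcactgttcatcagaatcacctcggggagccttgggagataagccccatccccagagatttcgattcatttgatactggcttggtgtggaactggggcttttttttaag
The canonical hexamer AATAAA occurs 42 times in the intron and 0 times in the locus, and whether any of these letters is used was not measured.

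A second locus of this kind lies inside SREBF1, at chr17:17826300-17827175, in intron 1 (16205 bases), and begins 9552 bases after the 5′ splice site. It had 17.5, 20.4 and 12.8 normalized reads in DMSO and 60.5, 45.5 and 41.0 in THZ531. The groups did not overlap, and it rose (log2 fold change 1.49, SE 0.36, adjusted p = 0.00151, limma), also with RPL34 scaling (1.01), under which the host turned to -0.083. The third, inside LSS at chr21:46189258-46190964, is not contained in 1 intron and had 33.3, 26.0 and 35.9 in DMSO and 50.4, 43.2 and 79.6 in THZ531 (log2 fold change 0.81, adjusted p = 0.0333, limma). Its groups did not overlap, and the change was under the fold threshold with the same total (0.57), with RPL34 (0.33) and at the lowest value when 1 library was left out (0.55). The other 3 tested loci, inside IDI1, FDPS and SCD, had groups that overlapped.

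**Figure D4:**
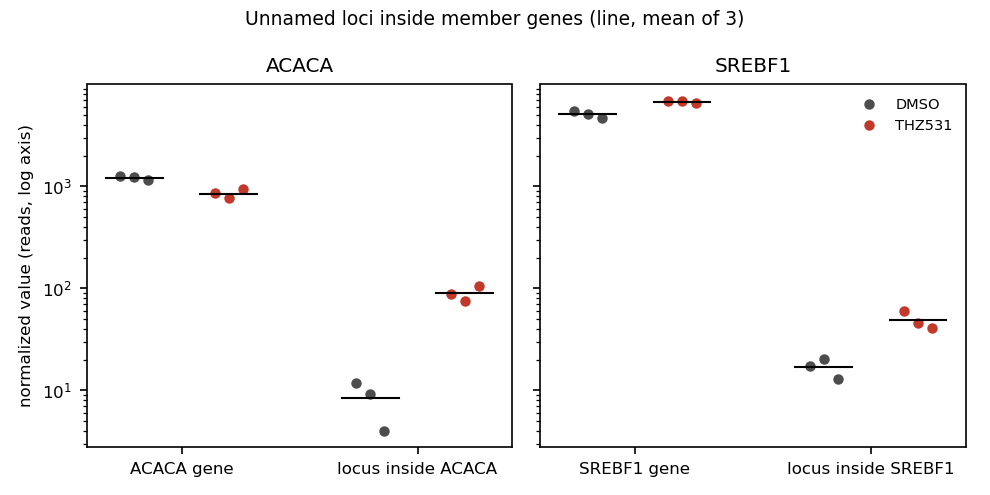
The vertical axis is normalized reads on a log axis, the points are single libraries (DMSO gray, THZ531 red) and the lines the mean of 3, for ACACA and SREBF1 and for the locus without a symbol inside each. In ACACA the host was lower and the locus higher in THZ531, and in SREBF1 the treated values lay above the controls for both host and locus.

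Named loci also overlap some of the genes, and how the counting treated strand is not given in the sources used here, so reads of an overlap cannot be told apart. FDPS lies within the span of the SLC50A1 locus and FASN within that of SLC16A3, and neither of these had a change past the fold threshold (log2 fold changes 0.016 and 0.12). WDR37 overlaps IDI1 by 7658 bases and fell (-1.03), and RAI1 overlaps SREBF1 by 126 bases and fell (-1.27), whereas neither IDI1 nor SREBF1 did. The antisense locus STARD4-AS1 had 6.35, 13.0 and 5.59 normalized reads in DMSO and 0 in the 3 THZ531 libraries, under the minimum for the test, and SREBF2-AS1, at the start of SREBF2, rose from 34.9, 35.3 and 53.5 to 79.3, 85.3 and 93.3 (log2 fold change 1.07, adjusted p = 0.00178, limma). The microRNA loci inside the SREBF genes, MIR33A and MIR33B, had 0 and at most 5.57 normalized reads, in polyA plus libraries that are not made for microRNAs.

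The wider sterol pathway was described from lists made by hand. Of 17 other genes of isoprenoid and sterol metabolism, 3 rose and 3 fell, near the background of 15.7% and 23.9% of all loci, with a median of 0.087. The prenyltransferase subunits were divided, since PGGT1B (1.10, 597, 563 and 677 against 1287, 1340.2 and 1299 normalized reads) and FNTB (0.72) rose and FNTA, the subunit that both enzymes share, fell (-0.61, 2186, 2125 and 2059 against 1443, 1349 and 1385). GGPS1, which makes geranylgeranyl diphosphate from the product of FDPS, fell 2.04-fold, from 3129.6, 3112 and 3243 to 1577, 1586 and 1478 normalized reads (adjusted p = 6.28e-11, limma). PDSS2, of ubiquinone side chain synthesis, fell (-0.62), and LBR, a sterol reductase that can replace TM7SF2, rose (0.64). With the same total FNTB (0.48) and LBR (0.40) were under the fold threshold, and under RPL34 scaling 1 of the 17 genes was regulated upward and 4 downward (6.14% and 42.8% of all loci).

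Of 15 genes that process or degrade SREBP, SCAP and INSIG proteins or belong to the same quality control system, 5 rose and 3 fell, beside 15.7% and 23.9% of all loci, with a median of 0.20. With RPL34 scaling 0 were regulated upward and 7 downward, beside 6.14% and 42.8% of all loci. RNF139, a ubiquitin ligase of the endoplasmic reticulum, rose 2.04-fold, from 1941, 1906 and 2118 to 4171, 4057 and 3908 normalized reads. PAQR3, a Golgi protein that binds SCAP, rose 1.92-fold, and ERLIN1, a membrane scaffold of sterol-dependent degradation, rose 1.79-fold. RNF145, a ligase that acts on SCAP, fell 1.67-fold, MBTPS2, the protease that makes the final cut of SREBP, fell 1.66-fold, from 383, 429.6 and 409 to 247, 232 and 255, and SYVN1, another ligase of the endoplasmic reticulum, fell 1.61-fold. The groups of these 6 genes did not overlap.

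Of 17 genes of sterol transport, esterification and the LXR receptors, 16 were tested, 3 rose and 3 fell, near the background of 15.7% and 23.9% of all loci, with a median of 0.015. GRAMD1A, which carries plasma membrane cholesterol to the endoplasmic reticulum, fell 4.23-fold, from 3673, 3703 and 3688 to 845, 838 and 936 normalized reads (adjusted p = 1.24e-13, limma), and its relative GRAMD1B fell 1.97-fold, from 183, 225 and 166 to 80.6, 114 and 96.7. NR1H3, the sterol-activated receptor LXR alpha, fell 2.80-fold, from 363, 403 and 333 to 139, 117.1 and 134 normalized reads. SOAT1, which esterifies cholesterol, rose 2.06-fold, and MYLIP and ABCA1, both known targets of LXR, rose 1.89-fold and 1.58-fold. With the same total ABCA1 was under the fold threshold (0.41), and with RPL34 scaling none of the 16 was regulated upward and 6 downward (6.14% and 42.8% of all loci).

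Of 26 other genes of fatty acid synthesis and activation, 25 were tested, 3 rose and 4 fell, beside 15.7% and 23.9% of all loci, with a median of -0.087. With the same total 1 was regulated upward and 6 downward (9.38% and 32.0% of all loci) and with RPL34 1 upward and 10 downward (6.14% and 42.8%). Among the 4, THRSP passed the minimum for expression only through its DMSO libraries and so had to differ. SCD5, a second stearoyl-CoA desaturase, fell 2.03-fold, from 1099, 1101 and 988 to 537, 457 and 585 normalized reads, while SCD did not. MCAT, of mitochondrial fatty acid synthesis, fell 1.73-fold. Among the enzymes that activate long-chain fatty acids, ACSL3 and ACSL1 rose 1.66-fold and 1.56-fold and ACSL4 fell 1.76-fold, while with the same total ACSL3 and ACSL1 were under the fold threshold (0.49 and 0.40). The plot of the lists gives every tested gene.

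**Figure D5:**
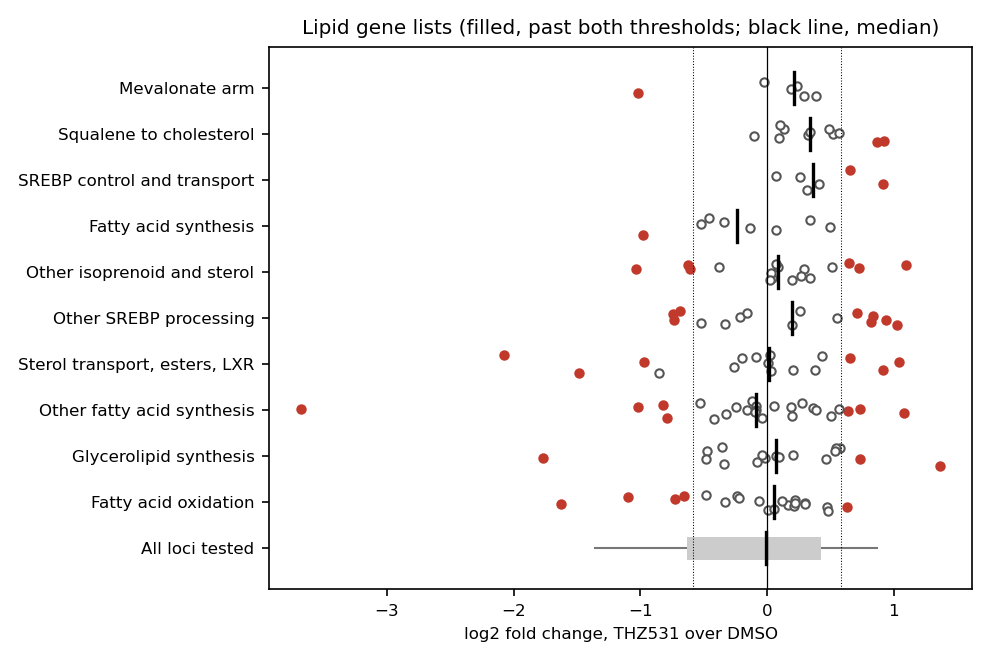
Each point is 1 tested gene of a list, placed by its log2 fold change of THZ531 over DMSO on the deposited scaling, filled where it passed both thresholds, with a black line at the median of the list. The lowest row is all 17568 loci tested, with a box from the lower to the upper quartile (-0.63 to 0.42), whiskers from the 10th to the 90th percentile and a line at the median. The 3 upper rows lie mostly right of 0, with FDFT1, SQLE, LSS, CYP51A1, MSMO1, SCAP and STARD4 beyond the upper quartile. No gene of the 4 upper rows lies farther from 0 than MVK at -1.02.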

How the data were processed

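PolyA plus libraries from OVCAR3 cells, 3 with DMSO and 3 with 200 nM THZ531, were analysed. The authors mapped reads to hg38 (STAR 2.7.5a in the submitters' processing notes), counted them with featureCounts on FAST DB loci and deposited 1 table of DESeq2-normalized values, a signal in which each read count was divided by the size factor of its library. Reads were recovered by dividing by the step of each library, and 100% of values were whole within 0.05 of a read. From the deposited values, log2(value + 1) was tested with limma 3.58.1 (trended variance, no covariates, R 4.3.3) over the loci that reached a value of 10 in 3 or more libraries, and p-values were adjusted by Benjamini-Hochberg over all of them. A fold change on this scale understates changes of low loci.

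The genes and lists were chosen with earlier results of these data known. All 31 genes were named, and from each other list up to 3 regulated genes per direction whose mean reached 100 and whose groups were apart. Loci and gene models of GENCODE v44 were matched by symbol and position, and levels per kilobase used the length of the representative transcript. Alternatives were pseudocounts of 0.1 and 10, minima of 0 and 50, libraries scaled to one total, to the upper quartile or to RPL34, a replicate block, limma without trend, edgeR 4.0.16, DESeq2 1.42.0, other thresholds and leaving out each library. The limma, edgeR and DESeq2 steps were tested on simulated data first. Cited intervals are 95% intervals from limma. Every column of the table was used.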

Additional observations from a re-analysis of the deposited data

How the results depend on the processing

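The count of 6 regulated genes (4 up, 2 down) was 6 with the replicate number as a block, with adjusted p in place of p, both pseudocounts, both other minima, upper quartile scaling, limma without trend, edgeR and DESeq2, and 7 with the same total and with RPL34. At a fold change of 2 it was 1 (0 up, 1 down), beside 4042 of the 17568 loci tested (1353 up, 2689 down). Without a fold threshold it was 22 (17 up, 5 down), beside 12059 loci (6073 up, 5986 down). With the same total 4 genes were down, beside 32.0% of all loci. With RPL34 0 were up and 7 down, beside 6.14% and 42.8%. Leaving out 1 library gave 6 to 8 genes, 4 to 5 up and 2 to 3 down. Same-numbered libraries did not deviate together (correlations -0.041, -0.0026 and -0.031), so no shared effect of the replicate number was seen. Whether same-numbered cultures were handled together is not stated. The block changed no call of the 31 genes. The median of 0.26 was 0.022 with the same total, -0.23 with RPL34, 0.22 with edgeR and 0.20 to 0.33 when 1 library was left out, lowest without DMSO replicate 2 and highest without DMSO replicate 1.

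Signs turned with RPL34 for HMGCS1 (-0.20), MVD (-0.26), IDI1 (-0.10), FDPS (-0.30), LSS (-0.0024), NSDHL (-0.17), HSD17B7 (-0.15), EBP (-0.36), SC5D (-0.39), DHCR7 (-0.40), INSIG1 (-0.23), INSIG2 (-0.42), SREBF1 (-0.083), SREBF2 (-0.18), ACLY (-0.42) and SCD (-0.15), and with the same total for MVD (-0.0063), FDPS (-0.052), EBP (-0.11), SC5D (-0.14), DHCR7 (-0.15), INSIG2 (-0.17) and ACLY (-0.17). These values are the rescaled log2 fold changes. The shift itself was nearly the same for every gene, -0.49 with RPL34 and -0.24 with the same total. PMVK turned without DMSO replicate 2 (0.044) or THZ531 replicate 1 (0.012), and INSIG2 without DMSO replicate 1 (-0.025) or THZ531 replicate 2 (-0.056), and over all 6 libraries left out in turn PMVK ranged from -0.099 to 0.044 and INSIG2 from -0.056 to 0.21. The least deeply counted genes, HSD17B7, INSIG1 and MVK, have the widest intervals.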

Other observations

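Genes that use fatty acids were examined as lists beside those that make them. Of 17 genes of glycerolipid synthesis and storage, 2 rose and 1 fell, beside 15.7% and 23.9% of all loci tested, with a median log2 fold change of 0.072. The balance turned with the same total (1 up, 4 down, beside 9.38% and 32.0%) and with RPL34 (1 up, 5 down, beside 6.14% and 42.8%). GPAM, the mitochondrial acyltransferase that begins glycerolipid synthesis, rose 2.58-fold, from 937, 947 and 839 to 2360.3, 2309.8 and 2341 normalized reads (adjusted p = 2.23e-11, limma), and stayed above the fold threshold with RPL34 scaling (0.87). DGAT1, which completes triglyceride synthesis, rose 1.66-fold and was under the fold threshold with the same total (0.49). LPIN3, a phosphatidate phosphatase, fell 3.40-fold, from 849, 932 and 888 to 299.8, 266 and 222 normalized reads.

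Of 21 genes of fatty acid oxidation, 1 rose and 4 fell, beside 15.7% and 23.9% of all loci tested, with a median of 0.054. With the same total 0 were regulated upward and 5 downward, beside 9.38% and 32.0% of all loci. With RPL34 0 were regulated upward and 8 downward, beside 6.14% and 42.8%. The receptor genes PPARA and PPARD fell 3.09-fold and 1.65-fold, with 518, 483 and 455 normalized reads of PPARA in DMSO and 161, 135 and 175 in THZ531. CPT2, of the carnitine shuttle, fell 2.14-fold, from 1718, 1764 and 1829 to 870.3, 758 and 851, and ACADS, a dehydrogenase of short-chain substrates, rose 1.55-fold, which neither scaling to the same total (0.39) nor to RPL34 (0.14) kept past the fold threshold. In each of these genes the groups did not overlap.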
